A study of Mus musculus with 2 samples.

Results

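The replication-dependent histone genes are the clustered genes that supply H1, H2A, H2B, H3 and H4 for newly made chromatin, and their binding by NRF1 was read from deposited peak lists. Members were the protein-coding genes on mouse chromosomes 3, 6, 11 and 13 with a clustered-histone symbol (H1-, H2ac, H2bc, H3c or H4c plus a number) or with such a name or a Hist1 to Hist4 name among their synonyms. This gave 69 of the 21312 protein-coding RefSeq genes whose strand could be placed. By family they were 8 H1, 18 H2A, 18 H2B, 12 H3 and 13 H4 genes, and by place 54 lay on chromosome 13, 10 on chromosome 3, 3 on chromosome 6 and 2 on chromosome 11. Of the 69, 67 carry a Hist name. H1f10 and H1f8 on chromosome 6 entered only through an H1- synonym: they are linker histones known as replication-independent, and the label holds less well for them.

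The samples were 2 chromatin immunoprecipitation libraries, biological replicates 1 and 2, prepared from CH12.LX with an NRF1 antibody; CH12.LX is an immortalized mouse B-cell lymphoma line of strain B10.H-2aH-4bp/Wts. Both libraries come from this 1 line, carry no treatment in the labels and form 1 group, so no groups could be compared, and a control library was not analysed here. The authors deposited an optimal set, of which 17547 peaks were analysed here, and a conservative set, both on mm10. Both were selected by irreproducible discovery rate, which scores how well peak ranks recur. Not every optimal peak overlapped a relaxed peak in both replicates, as given below. The authors also deposited a relaxed list of 300000 peaks for each replicate, and a separate peak set on mm9. The sources used here give no read numbers, and depth is unknown.

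NRF1, nuclear respiratory factor 1, binds a GC-rich palindrome, mostly close to the start sites of housekeeping genes, and is best known as an activator of nuclear genes for mitochondrial proteins. Replication-dependent histone genes are short and without introns, are transcribed in S phase at histone locus bodies under the co-activator NPAT, and give mRNAs that end in a stem-loop in place of a poly(A) tail. Many H2A and H2B genes stand head to head and share 1 promoter with CCAAT, TATA and octamer elements.

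The sequences under the peaks show where NRF1-like letters lie in these genes. The consensus searched was GCGCATGCGC or GCGCACGCGC, 10 bases, on both strands. No member held an exact copy in its promoter (250 bases before to 50 after the start; 0 of 64 members in the RefSeq promoter table of GRCm38.p6), against 3.58% of the 17274 genes in that table. With up to 1 mismatch 5 members matched, 7.81%, against 14.6% of all genes. H3c8 and H1f2 are shown because their promoter peaks lie on such a site. The other matching promoters held no optimal summit. Summits also lay in the H1f3 and H1f4 promoters, where the best matches in the 81 bases around them had 3 and 2 mismatches. Capitals mark the site, written 5′ to 3′ on the gene's strand. The H3c8 stretch is chr13:23535318-23535398 (+) and the H1f2 stretch is chr13:23738726-23738806 (+), both on GRCm38.p6.
H3c8: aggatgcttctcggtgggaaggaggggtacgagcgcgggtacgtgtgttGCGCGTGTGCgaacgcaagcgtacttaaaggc
H1f2: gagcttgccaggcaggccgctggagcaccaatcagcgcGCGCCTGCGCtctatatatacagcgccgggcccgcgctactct
Counted from 1 at the 5′ end of the consensus on the strand that matches, the substitution was G3A in H3c8 and A5C in H1f2. The H3c8 site was centred 13.5 bp downstream of the peak summit and the H1f2 site 2.5 bp downstream.

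The H2B genes hold their nearest match inside the coding sequence. In 16 of 18 H2B genes, coding bases 87 to 96, in codons 29 to 32, spell a site with 1 mismatch, substitution T6A. These 30-base stretches begin at the same coding base of each gene and come from the mm9 genome (NCBIM37) because the genome sequence at hand was of that build. They were not aligned. The H2bc1 coding sequence is longer, 381 bases against the usual 378, so its stretch may be out of line with the others. H2bc18 and H2bc13 show the 2 spellings found among the 16, and H2bu2 and H2bc1 are the genes without the site. Their places are chr3:96073751-96073780 (+), chr13:21807907-21807936 (−), chr11:58762518-58762547 (+) and chr13:24025920-24025949 (−).
H2bc18: atggcaagaaGCGCAAGCGCagccgcaagg
H2bc13: acggcaagaaGCGCAAGCGCagccgcaagg
H2bu2: atggcaagaaacgcaaacggggccgcaagg
H2bc1: aggagggccggaaacgtaagagatgccgca
At that place H2bu2 differed from the consensus by G1A, T6A, G7A and C10G. In the H2A family, 14 of 18 genes hold another site with 1 mismatch at coding bases 126 to 135. Over the first 378 coding bases, the usual coding length of an H2B gene here, 3.1% of 20580 mouse genes hold a site with up to 1 mismatch and 0.141% an exact one. Within 1000 bp to either side of the annotated start on mm9, 0 of 69 members and 5.0% of 22350 protein-coding genes held an exact site. With up to 1 mismatch the counts were 37 of 69 members, 53.6%, against 24.8% of all genes. They were 16 of 18 for H2A, 16 of 18 for H2B, 3 of 12 for H3, 2 of 8 for H1 and 0 of 13 for H4. Most of the 37 are thus H2A and H2B genes, and most of those hold the coding site of their family. Genes of a head-to-head pair can also count each other's site, so the 37 are not independent matches. A match is a description of the letters and not a binding site.

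A gene is called occupied where an optimal peak has its summit within 1000 bp of the gene's 5′ end. By that rule 33 of 69 members were occupied, 47.8% (95% Wilson interval 36.5 to 59.4), against 36.8% of all protein-coding genes. The order turned round with the 8773 optimal peaks of highest signal, 20.3% of members against 26.9% of all genes, and on mm9, 13% against 33.0%. The mm9 share of all genes counts a summit near any GENCODE start of a gene, not near its 5′ end alone. Within 5000 bp the count was 47 of 69, 68.1%, against 42.9% of all genes. There were 34 distinct peaks in this window, against 30 within 1000 bp. The nearest summit of each added member was that of a peak already counted at another member. The interval covers counting error only, and members that share a peak are not independent, so the difference from all genes was not tested. By family 3 of 8 H1 genes, 9 of 18 H2A, 12 of 18 H2B, 3 of 12 H3 and 6 of 13 H4 genes were occupied. By place the counts were 26 of 54 on chromosome 13, 5 of 10 on chromosome 3, 1 of 3 on chromosome 6 and 1 of 2 on chromosome 11. The chromosome 13 genes fall in 2 blocks, with 9 of 23 occupied in the first (21715711 to 22043658 on mm10) and 17 of 31 in the second (23531044 to 23934913).

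The 33 genes rest on 30 distinct peaks, because 11 peaks lay within 1000 bp of 2 or more members. Most of these peaks were weak. Their median signal, the authors' signal value with no unit given, was 34.5, against 61.2 for the 8284 promoter peaks of all protein-coding genes and 38.04 for all optimal peaks. Among the 8773 optimal peaks of highest signal stood 12 of the 30, 40%, against 65.1% of all promoter peaks, and those 8773 peaks occupied 14 members, against 26.9% of all genes. Signal exceeded 150 at 4 of the 30, 13.3%, against 23.8% of all optimal peaks. Width was at the common value of 344 bp with the summit at the middle in 26 of the 30, 86.7%, against 60% of all promoter peaks, so the place of most of these summits is coarse.

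The 2 replicates differed by more than 2-fold only at weaker peaks, but not at every weak peak. Of the 30 peaks, 29 overlapped a relaxed peak in both replicates, with a replicate 1 to replicate 2 ratio between 0.258 and 2.95 and a median of 1.14. The ratio passed 2-fold either way at 5 of the 29, and 0 of those 5 had an optimal signal over 50. The H4c8 peak of 59.9 came near that limit (19.4 and 37.6), while the weaker H4c3 peak had close values (13.5 and 13.4). The overlapping peaks of H2bc13, and those of H2bc3, share 1 relaxed peak per replicate and are each counted in the 29. The optimal signal equals that of the pooled list at all 30 peaks, so it is not a mean of the replicate values.

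**Figure D1:**
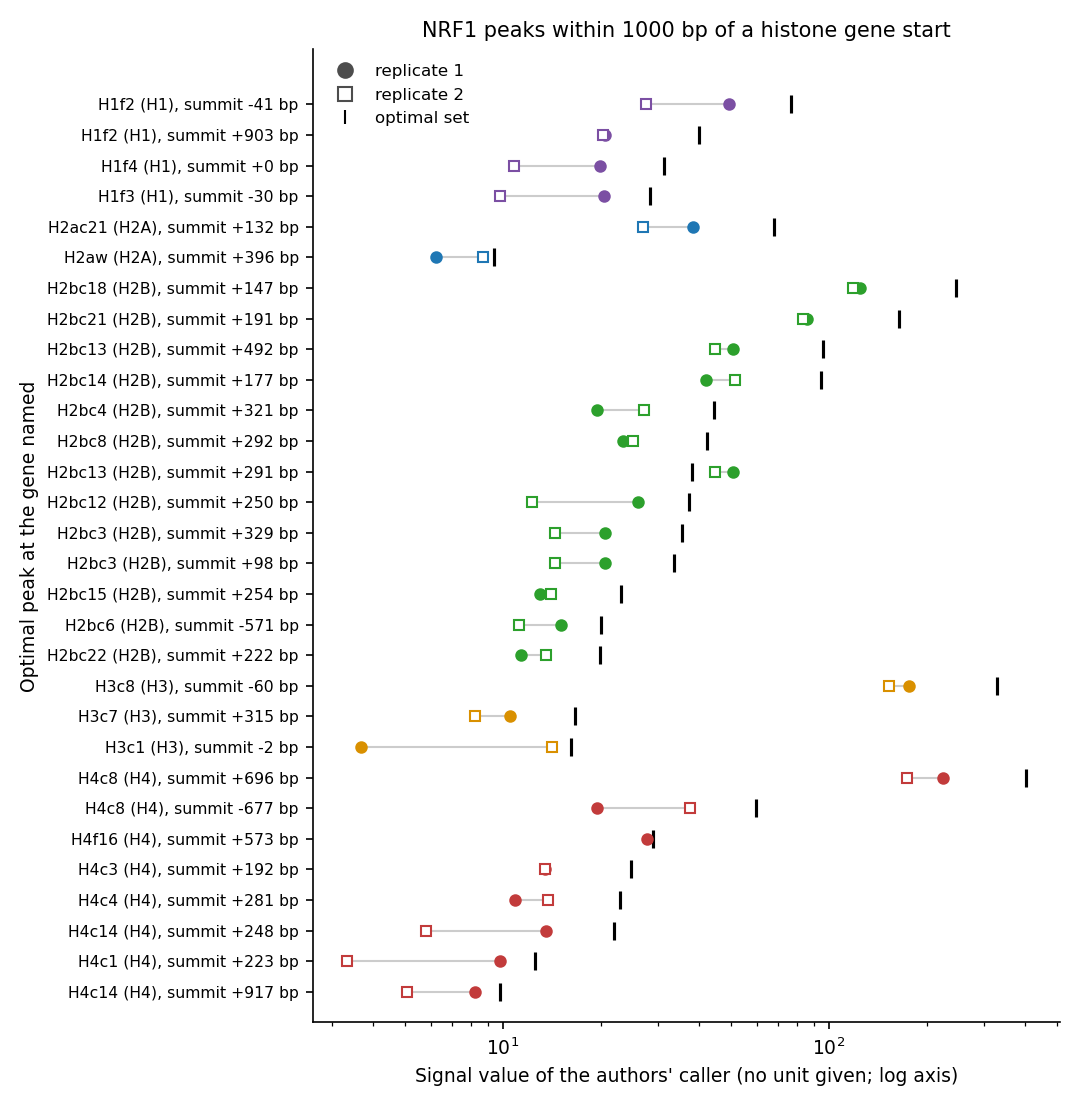
Signal value of each of the 30 optimal peaks within 1000 bp of a histone gene start (vertical tick) and of the overlapping relaxed peak in replicate 1 (filled circle) and replicate 2 (open square), on a log axis, grouped by family, with the summit's distance from the start of the gene named. H4c8, H3c8, H2bc18 and H2bc21 stand above 150 in the optimal set, and H4f16 has no overlapping peak in replicate 2.

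H1 genes encode the linker histones that bind DNA between nucleosomes. H1f2 had its strongest peak 41 bp upstream of the start, with a signal of 76.4 in the optimal set and of 49.5 and 27.5 in replicates 1 and 2 (38.5 ± 15.6, SD, n = 2). A further H1f2 peak of 39.9 had its summit at 903 bp, which is 179 bp past the gene end, and gave 20.5 and 20.3 in the replicates. H1f4 had a peak of 31.3 with its summit on the start (19.8 and 10.8), and H1f3 one of 28.3 at 30 bp upstream (20.5 and 9.81). In all 3 occupied H1 genes the nearest summit lay within 41 bp of the start. H1f1, with its nearest summit 1280 bp upstream, and the testis form H1f6, with its nearest 2455 bp downstream, had one only between 1000 and 5000 bp. H1f1 had relaxed peaks of 20.2 and 9.81 within 1000 bp.

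H2B genes encode the partner of H2A in the nucleosome's outer dimers, and 13 of the 30 peaks lay at them, more than at any other family. H2bc18, on chromosome 3, had a peak of 245.7 at chr3:96269734-96269919, with 124.5 in replicate 1 and 118.6 in replicate 2 (121.5 ± 4.20). Its summit lay 147 bp downstream of the start and 4.5 bp from the centre of the coding site. The H2bc21 peak at chr3:96221167-96221310 had a signal of 164.5, with 85.5 and 83.6 in the replicates (84.6 ± 1.41), and its summit lay 191 bp downstream. At H2bc14 the peak of 94.7 (41.9 and 51.6) had its summit 177 bp downstream, 32.5 bp past the site centre. H2bc13 had overlapping peaks of 96.2 and 37.97, with summits 492 bp and 291 bp downstream. The first of these lies 20 bp past the gene end, and both overlap the same relaxed peak in each replicate (50.9 and 44.8).

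The other occupied H2B genes were weaker. H2bc4 reached 44.3 (19.5 and 27.1), H2bc8 42.3 (23.3 and 24.998) and H2bc12 37.1 (26.1 and 12.3). H2bc3 had overlapping peaks of 35.5 and 33.6, both on 1 relaxed peak in each replicate (20.6 and 14.5). H2bc15 had 23.1 (13.01 and 14.02) and H2bc22 19.8 (11.4 and 13.6). These 6 genes had their nearest summits 98 to 321 bp downstream, so that 9 of the 12 occupied H2B genes had it more than 100 and up to 350 bp downstream, and H2bc3 had it at 98 bp. H2bc6 and H2bc9 were occupied only from upstream, through a peak of 19.97 at 571 bp (15.1 and 11.2), shared with H1f4, and 1 of 16.7 at 923 bp (10.5 and 8.21), shared with H3c7. RefSeq lists a second start of H2bc6 at 23585970, and peaks of 37.7 and 32.1 had their summits 266 and 873 bp downstream of it. H2bc7 had its nearest summit 2515 bp downstream.

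The site and the peaks did not coincide gene for gene. Of the 16 H2B genes with the coding site, 12 were occupied and 4 were not, and of the 2 without it, 0 were occupied. The 4 unoccupied genes with the site, singled out after their values were seen, were H2bc7, H2bc11, H2bc23 and H4bc24 (the RefSeq symbol of Hist1h2br). H2bc11 had relaxed peaks of 16.9 and 10.2, and H2bc7 of 7.87 and 8.89. Both were occupied in the conservative set, which left out H2bc22, so these counts depend on the peak set. From the site centre to the nearest summit, the distance was 4.5 bp at H2bc18, 32.5 bp at H2bc14 and 160.5 bp at H2bc13. At H2bc12, H2bc22, H2bc15 and H2bc8 the summit lay 93.5 to 168.5 bp past it. At H2bc3 and H2bc9 the summit minus the site centre was -53.5 and -1105.5 bp, so the distance did not follow the signal in every gene. These distances join mm10 summits to mm9 letters through the promoter sequence, which was matched whole between the builds, and could be had for 9 of the 12 occupied genes.

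**Figure D2:**
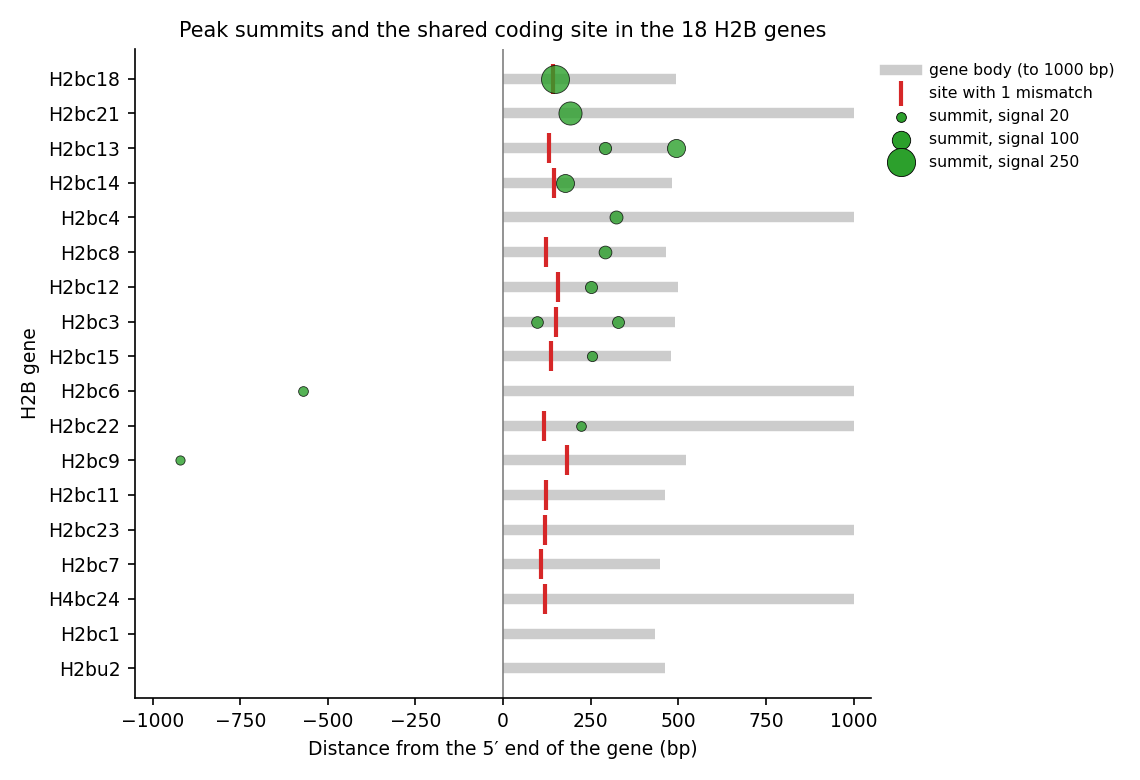
The 18 H2B genes, ordered by site and by strongest signal, with the gene body in grey, the centre of the coding site with 1 mismatch in red, and optimal summits within 1000 bp as circles whose area grows with signal, against distance from the 5′ end in bp. No site is drawn for H2bc21, H2bc4 and H2bc6, which hold it but whose start could not be placed, and most summits lie at or past the site.

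H2A genes were occupied mainly through the H2B gene at their side. H2ac21 was the exception on chromosome 3, with a peak of 67.8 (38.3 and 27.0, 32.7 ± 8.02) whose summit lay 132 bp downstream of its own start. H2ac20 stands between that peak and the H2bc21 peak and was within 1000 bp of both. H2aw on chromosome 11 had a peak of 9.42 at 396 bp (6.25 and 8.69), the weakest of the 30, which is also within 1000 bp of the start of Trim17. For the remaining occupied H2A genes, H2ac6, H2ac8, H2ac12, H2ac13, H2ac15 and H2ac22, the nearest summit lay 418 to 561 bp upstream, inside the H2B partner. H2ac10, H2ac7 and H2ac4 had their nearest summit 1483, 2689 and 4025 bp away.

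Of 12 divergent H2A-H2B pairs, with starts 164 to 281 bp apart, 7 had a peak. A pair was counted when either start had a summit, so the 36.8% of single protein-coding genes is not a like share. No share was taken over other head-to-head pairs, and the 7 of 12 is a count only. Of the 9 peaks at these pairs, 8 had the summit downstream of the H2B start and 0 between the starts. Of these 8, 2 are the overlapping H2bc13 peaks, which lie on 1 relaxed peak in each replicate. The remaining peak is that of H2ac21, 863 bp downstream of the H2ac20 start and past the H2ac20 end. Promoter letters of both families were rich in histone elements. CCAAT, on either strand, was in 18 of 18 H2A and 16 of 16 H2B promoters, against 42.7% of all promoters of this length. The octamer ATTTGCAT was in 7 of 18 and 7 of 16, against 1.92%. TATAAA was in 35 of 64 members, 54.7%, against 14.9%. Members had a median promoter GC share of 45.5% against 56.5% for all genes. The ratio of observed CpG to that expected from base content went the other way, with a median of 0.748 against 0.573.

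H3 genes encode the histone whose tail carries many of the known chromatin marks. They had the lowest occupied share of any family, 3 of 12, though by count they tied with the H1 genes, 3 of 8. Both families are small, and the difference was not tested. H3c8 stood far above the rest, with a peak of 327.1 at chr13:23535207-23535468, 175.6 in replicate 1 and 152.9 in replicate 2 (164.2 ± 16.03). Its summit lay 60 bp upstream of the start, over the site printed above. H3c7 had the peak of 16.7 shared with H2bc9, 315 bp downstream of its start. H3c1 had a peak of 16.2 at 2 bp upstream, with 3.66 in replicate 1 and 14.2 in replicate 2, so it rested mainly on replicate 2. H3c13, H3c3, H3c10, H3c4 and H3c11 had their nearest summits at 1193, 1311, 1736, 4071 and 4308 bp, and the H3c13 one is the H2bc18 peak.

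H4 genes encode the partner of H3 in the nucleosome core. The strongest of the 30 peaks was at H4c8, 402.1 at chr13:23531611-23531884, with 223.3 and 174.1 in the replicates (198.7 ± 34.8). Its summit lay 696 bp from the start and 262 bp past the gene end. It is also inside or within 1000 bp of the long non-coding RNA gene Gm11335, whose start was not placed. A second H4c8 peak of 59.9 (19.4 and 37.6) lay 677 bp upstream, near the tRNA gene n-TMcat9 and also near Gm11335. Apart from these, H4 peaks lay inside or past the gene. H4c3 had 24.7 (13.5 and 13.4) at 192 bp, H4c4 22.9 (10.9 and 13.8) at 281 bp and H4c1 12.5 (9.83 and 3.33) at 223 bp. H4c14 had 21.9 (13.5 and 5.82) at 248 bp and 9.83 (8.199 and 5.08) at 917 bp, which is 534 bp past its end. H4f16, on chromosome 6, had a peak of 28.8 at 573 bp, 135 bp past its end, with 27.7 in replicate 1 and no overlapping relaxed peak in replicate 2. The peak of 394.9 located 3835 bp upstream of H4f16 is that of H2aj, 18 bp downstream of the H2aj start. H4c6, H4c12 and H4c2 had their nearest summits at 3334, 3777 and 4089 bp.

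By place, 6 of the 30 summits were upstream of the start of the gene that held them, 10 inside and nearer the start, 9 inside and nearer the end, and 5 past the gene end. The 5 past the end were those of H4c8, H2bc13, H1f2, H4f16 and H4c14. Each summit was counted once, by the gene it lies in or else by the nearest start. The peak of 19.97 near H2bc6 and H1f4 is thus counted as upstream of H2bc6, though it also lies past the end of H1f4. Over the occupied members the nearest summit lay more than 100 and up to 350 bp downstream in 45.5%, against 14.2% of the 7837 occupied protein-coding genes, and within 100 bp in 18.2%, against 56.8%. The median distance was 281 bp, against 81 bp. Of the 32 other occupied coding genes of at most 1000 bp, 12.5% had the summit in that range downstream and 59.4% within 100 bp. The part of gene length was not tested. The values nearest the 1000 bp limit were 923 bp for H2bc9, 917 bp for H4c14 and 903 bp for H1f2 inside it, and 1136 bp for an H1f2 peak of 5.80, 1193 bp for H3c13 and 1280 bp for H1f1 outside it.

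**Figure D3:**
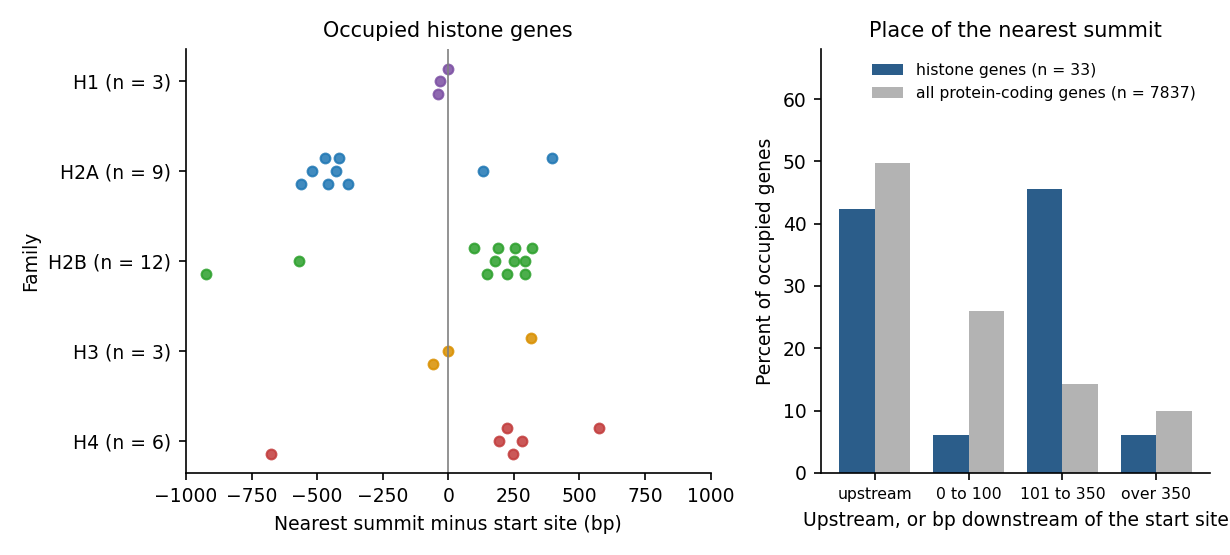
Left, nearest optimal summit minus start site in bp for each of the 33 occupied histone genes by family. Right, percent of occupied genes by place of the nearest summit, histone genes in blue and all protein-coding genes in grey: 45.5% of the histone genes against 14.2% of all have it more than 100 and up to 350 bp downstream, with the H2B genes mainly there and the H2A genes mainly 383 to 561 bp upstream.

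The stem-loop of histone mRNAs was sought in mm9 as a perfect inverted repeat of 6 bases around a loop of 4 within 100 bases past the end of a coding block, its stem opening with GG. It was found in 63 of the 68 members with an annotated coding sequence, 92.6%, against 2.18% of all protein-coding genes, and began 25 to 62 bases past the coding end. The peaks counted as past a gene end lay 20 to 534 bp beyond that end.

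The relaxed lists hold the called peaks as well as weaker ones. In replicate 1, 56 of 69 members had a relaxed peak within 1000 bp, 81.2%, against 59.6% of all genes, and in replicate 2 it was 54, 78.3%, against 59.3%. The medians of the strongest such peak were 12.6 and 11.9 in members, against 17.1 and 15.2 in all genes. Among the 36 unoccupied members 23 (63.9%) had one in replicate 1 and 21 (58.3%) in replicate 2, against 36.2% and 35.7% of all unoccupied genes. Their medians were 7.43 and 6.79, against 4.53 and 4.71 in unoccupied genes overall. Taking the 17547 highest relaxed peaks of 1 replicate as calls, replicate 1 occupied 35 members (37.9% of all genes) and replicate 2 34 (36.7% of all genes). They shared 30 members, 26 of which were in the optimal set. H1f1, H1f5, H2ac11 and H2bc11 were the 4 others, singled out after their values were seen, and they were in the conservative set as well. H1f5 had relaxed peaks of 12.1 and 12.9.

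Histone genes of 1 family are near-copies of each other, and the sources used here do not say how the authors treated reads that map to several places. The share of 32-base words of a coding sequence that occur once in mm9, on either strand, was used to describe this. Its median was 17% over 68 members, 22.8% in the 33 occupied and 13.3% in the 35 unoccupied ones with a coding sequence. By family the median was 97.9% for H1, 11.9% for H2A, 14.6% for H2B, 11.9% for H3 and 22.3% for H4. It was 0 in 12 members, of which 1, H2bc4, was occupied.

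In the first block on chromosome 13, H2bc23, H2ac23, H4c17, H4c18, H2ac24 and H4bc24, singled out after their values were seen, had no unique word and no relaxed peak in either replicate. The other 6 members at 0 had a relaxed peak in at least 1 replicate, among them H2ac11 (16.9 and 10.2), H2ac7 (7.87 and 8.89) and the occupied H2bc4. Another 4 members had no relaxed peak in either replicate: H3c4 (11.9% unique), H2bc1 (56.9%), H2ac1 (88.8%) and H1f6 (100%). The last 3 are the testis forms. At the 4 genes of the strongest peaks the share was 23.4% at H4c8, 21.2% at H3c8, 91.8% at H2bc18 and 83.3% at H2bc21. The 32 bases around the H2B coding site occur 6 or 11 times in mm9 in all 16 genes that hold the site. The part of read placement in which members carry a peak was not tested.

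**Figure D4:**
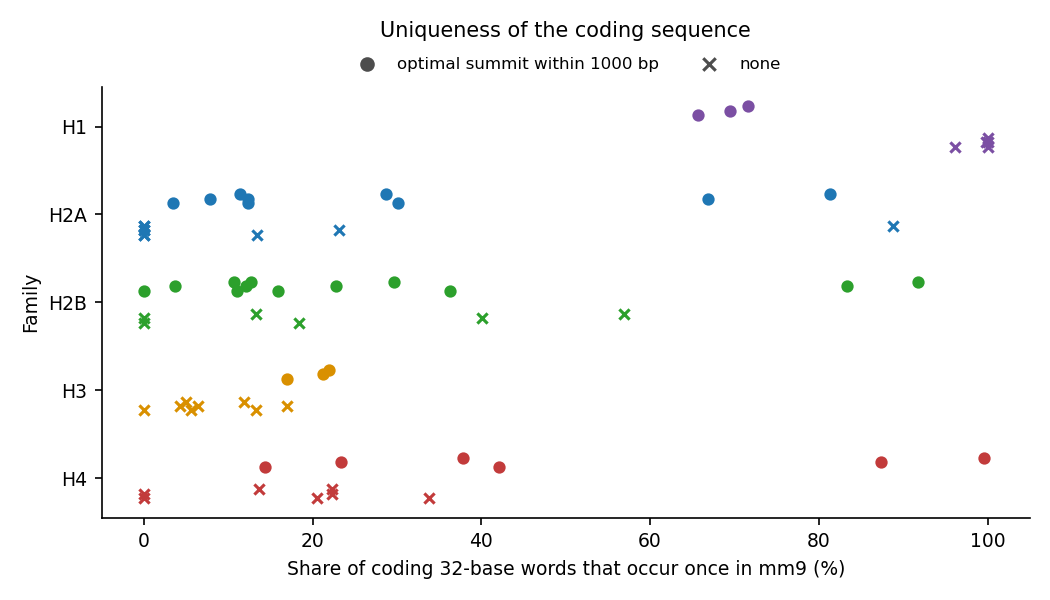
Share of each member's coding 32-base words that occur once in mm9, in percent, by family, for members with an optimal summit within 1000 bp (circles) and without one (crosses). H1 genes lie at 65.7% or above, and 11 of the 12 members at 0 have no summit.

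The mm9 set, made apart from the mm10 sets and on another signal scale, held far fewer histone peaks. It occupied 9 members (13%) through 7 peaks, against 33.0% of all protein-coding genes, which were counted by any GENCODE start. All 9 were also occupied on mm10, though not always by a peak at the same place. H2bc21 had a signal of 295.0 with its summit 98 bp past the first coding base, and H2ac21 one of 186.2 at 107 bp. A peak of 36.5 lay in the H2ac20 coding sequence at 129 bp, where the optimal set has no summit. H1f2 had 112.1 at 23 bp upstream of the start, H2bc9 93.5 in its coding sequence (its optimal mm10 summit lies 923 bp upstream), the H2bc4 and H2ac6 pair 59.7 in the H2bc4 coding sequence, and H1f4 38.3 at 2 bp upstream. H4c8, H3c8 and H2bc18, with 3 of the 4 strongest mm10 peaks, had no mm9 summit within 1000 bp. The stretches around the chromosome 3 summits are shown because the sites of both families lie under them, with the site in capitals, at chr3:96023906-96023986 (+) and chr3:96025147-96025227 (+) of NCBIM37.
H2ac21: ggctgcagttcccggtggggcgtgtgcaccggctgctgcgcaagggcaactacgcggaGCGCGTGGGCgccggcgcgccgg
H2bc21: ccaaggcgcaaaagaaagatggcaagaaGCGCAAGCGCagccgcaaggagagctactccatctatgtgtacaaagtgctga
The site in H2ac21, read on the strand that matches, carries G3C and is centred 22.5 bp downstream of the summit, and that in H2bc21 carries T6A and is centred 7.5 bp upstream. Within 50 bp of the summit, 4 of the 7 member peaks had a site with up to 1 mismatch, against 34.0% of the 11216 mm9 peaks. The peaks in the H2bc9 and H2bc4 coding sequences and at H1f4 had none, with 3, 2 and 3 mismatches at best. H2bc9 and H2bc4 hold the H2B coding site, so their mm9 summits did not lie on it.

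The genes that make and handle histones were occupied more often by share than the histone genes themselves. Of 25 genes for histone transcription and mRNA processing 23 were occupied, 92.0%, with a median signal of 462.1, against 36.8% of all genes. Among them were Npat, the co-activator of histone transcription, at 618.5, Hinfp, which binds H4 promoters, at 638.5, Lsm11, a subunit of the U7 particle that cleaves histone mRNA, at 555.7, and Slbp, which binds the stem-loop, at 312.1. Cstf2 and Gon4l were not. Of 28 histone chaperone genes 25 were occupied, 89.3%, with a median signal of 76.1. Of 18 genes listed as replication-independent histones, 6 were occupied, 33.3%. The list takes in 3 members, H1f10, H1f8 and H4f16, of which H4f16 is 1 of the 6 and also carries a clustered-histone name (Hist4h4). They included H2aj at 394.9, H2ax at 81.3 and H2az1 at 80.1. Among the 10 other coding genes inside the clusters 2 were occupied, 20%: Zfp184 at 87.4 and Trim17 through the H2aw peak.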

How the data were processed

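The peak lists are the authors' own. Per the notes deposited beside the libraries, relaxed lists of peaks and background were made on mm10 from either replicate and from their pool, each with a control, and optimal and conservative sets were selected from them by irreproducible discovery rate. A set on mm9 was made from both replicates with no control named. Aligner, caller and thresholds: not given in the sources used here. The deposited signal value of each peak, whose scaling is not given, served to rank and describe peaks within a list, and the deposited rank score only described the optimal set, with 19 of the 30 histone peaks at its ceiling of 1000.

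Chromosomes 1 to 19 and X were used, with Python 3.11.15, pandas 2.3.3, numpy 2.4.6 and pysam 0.24.0. Gene ends are those of RefSeq on GRCm38.p6, and strand from its promoter table for 17274 genes and from GENCODE vM1 by symbol or synonym for 3649 and 389, leaving out 319 of 21631. For members these were 64 from the promoter table and 5 by synonym. Sequences and promoters are from RefSeq (GRCm38.p6) or from NCBIM37 (mm9), and no coordinate was converted. A summit is the start of a peak plus column 10. Means ± SD are taken over the overlapping relaxed peaks of the 2 replicates.

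Named genes are members with a summit within 1000 bp, those with one only at 1000 to 5000 bp (14 members), and those singled out in the text; the other 22 had none within 5000 bp. The members, lists and measures were chosen with earlier results of these data known. Zfp100, in the list of histone transcription genes, is here only a synonym of another gene and was left out. CRE (TGACGTCA), ETS (CCGGAAGT) and SP/KLF (GGGGCGGGG) were in 4, 0 and 4 of the 64 member promoters, against 2.58%, 5.76% and 17.5% of all. Wilson intervals cover counting error only. No test was run, since there is 1 group. Occupancy, motif and word counting were checked on simulated data. Alternatives were the conservative set, the 8773 peaks of highest signal, each replicate alone, peak overlap, other windows, mm9, and, chosen after seeing the data, all listed starts and the Hist-named members alone.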

Additional observations from a re-analysis of the deposited data

How the results depend on the processing

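The count of 33 occupied members stayed within 1.5 times under the conservative set, peak overlap, windows of 500 and 2000 bp, all listed starts and the Hist-named members alone (27 to 38), and without replicate 1 or 2 it was 34 to 35. It moved to 14 with the 8773 optimal peaks of highest signal and to 9 with the mm9 set. The 47 members within 5000 bp moved to 21 and 12, and the 30 distinct peaks to 12 and 7, under the same 2 settings. Without 1 replicate these were 49 to 50 and 33 to 34. The share of all protein-coding genes, 36.8%, became 35.5% with the conservative set, 26.9% with the 8773 highest peaks, 33.0% on mm9, 33.7% at 500 bp, 39.2% at 2000 bp, 39.9% with all listed starts and 36.7% to 37.9% without 1 replicate. The members' share stood below that of all genes with the 8773 highest peaks (20.3%) and on mm9 (13%). On mm9 all genes were counted by any GENCODE start. The cause was not tested. The conservative set shared 26 of its 32 members with the optimal set. Members with the NRF1 consensus in the promoter moved from 0 to 5 with 1 mismatch allowed and stayed at 0 within 1000 bp. With 1 line, 2 libraries and unknown depth, and with no control library analysed here, weak peaks are the least certain, and an absent peak is not shown to be absent binding. No paired analysis was possible because there is only 1 group.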
